A study of Mus musculus with 6 samples.

Results

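Krt8, Krt18, Krt19, Cldn6 and Cdh3 are 5 genes of epithelial cells, and 7 of the 5538 potential RNA G-quadruplex sites in the deposited tables lie in them, among 2643 gene entries. The sites were taken as every row whose gene name is one of these symbols. The genes were picked with earlier results of the same samples in view, in which the keratin genes had more reads on day 7 than on day 0. Their differences between days are therefore given as a description, with no test. Comparisons of day 7 cells with the in vitro tables, and of K+ with Li+ within a day, were not what the choice was made on.

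Keratins 8, 18 and 19 are the intermediate filament proteins of simple, single-layered epithelia: the type II keratin Krt8 assembles with a type I partner, Krt18 or Krt19. They appear early in the mouse embryo, in the trophectoderm and in endoderm, and are little made in undifferentiated stem cells. Claudins seal the space between neighbouring epithelial cells at tight junctions, and Cldn6 is a claudin of embryonic epithelia. Cadherins hold cells together at adherens junctions through calcium-dependent binding, and Cdh3 encodes P-cadherin. An RNA G-quadruplex is a stack of guanine tetrads that forms where runs of guanines lie close together and that is stabilised by K+ and not by Li+.

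The series holds 6 samples of 1 clonal mouse embryonic stem cell line, 2 each on day 0, day 3 and day 7 of embryoid body differentiation. All of them share the cross 129S1/CastEiJ x 129S1, the TsixTST/+ allele pair and a genotype labelled WT, and the labels name no other agent than the DMS described here. Cells had been grown on feeders with leukemia inhibitory factor, and were freed of the feeders and deprived of the factor to differentiate, in suspension until day 3 and attached to gelatin after it. Every sample was exposed to dimethyl sulfate (DMS), which modifies guanines that are not held in a folded quadruplex and so keeps them from folding later, and the chromatin-bound poly A+ RNA was fragmented and reverse transcribed once in K+ and once in Li+. A stop of the enzyme at a motif in K+ above the level in Li+ thus marks a motif that was folded when DMS was added. For the day 7 samples a further pair of tables is named in vitro, and the labels do not describe how that RNA was prepared.

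Each table gives the number of reads over a site (coverage) and the number ending there (stops) in each cation, and the stop share is stops as a percentage of coverage. Outside 9 ribosomal and mitochondrial sites, the in-cell libraries held 87479 to 1536568 listed reads, fewest in day 3 replicate 1 in K+ and most in day 7 replicate 1 in Li+. Their overall stop share was 4.21% to 9.62%. Day 3 replicate 1 in K+ stood apart from the other in-cell libraries with 9.62%, since the next highest was 6.81%. In the in vitro tables the overall stop share was 47.7% in K+ in both samples, and 9.27% and 8.20% in Li+.

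The 7 motifs are shown because every stop below was counted at them. Each is written 5′ to 3′ along the RNA as deposited, T standing for U, with runs of 2 or more guanines in capitals and including bases beyond the motif's end.
Krt8: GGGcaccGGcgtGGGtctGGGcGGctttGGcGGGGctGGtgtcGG
Krt18: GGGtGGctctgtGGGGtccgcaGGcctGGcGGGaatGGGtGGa
Krt19 longloop: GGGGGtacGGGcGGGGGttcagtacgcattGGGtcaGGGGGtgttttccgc
Krt19 bulges: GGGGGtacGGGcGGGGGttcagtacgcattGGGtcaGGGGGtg
Cldn6: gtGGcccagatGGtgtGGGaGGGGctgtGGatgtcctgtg
Cdh3 bulges: gaGGctGGGGtGGGtGGGGcaGGGtgcGG
Cdh3 canonical: GGGGtGGGtGGGGcaGGGtgcGGacatc
The words longloop, bulges and canonical are the authors' structural classes: a quadruplex with a long loop, one in which a run of guanines is interrupted, and one of uninterrupted runs with short loops. The Krt8, Krt18 and Cldn6 motifs are of the bulged class.

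The motifs lie, on the mouse build GRCm38 and counted from 1, at chr15:102004050-102004084 (minus strand) for Krt8 and chr15:102028440-102028472 (plus strand) for Krt18. Krt19 has both its motifs on the minus strand, at chr11:100145774-100145814 (longloop) and chr11:100145782-100145814 (bulges), so the shorter lies wholly inside the longer and their sequences share 43 bases. The Cldn6 motif is at chr17:23681187-23681216 on the plus strand. The keratin and claudin motifs are annotated as coding sequence, the class of 24.2% of all sites. The Cdh3 motifs, at chr8:106555848-106555866 (bulges) and chr8:106555854-106555871 (canonical) on the plus strand, are in the 3′ untranslated region. Their sequences as shown, which include bases beyond the motif's end, share 23 bases. Paired sites of 1 gene share bases and are not independent.

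The 3 keratin motifs shared a place that the choice of genes had not used. They began 112 bases (Krt19), 224 bases (Krt18) and 258 bases (Krt8) from the start of the gene in RefSeq. Of the 1332 coding sites with a gene start on this build, 96 (7.21%) lay within 300 bases of it, and the median distance was 10578 bases. The window of 300 bases lies just above the largest of the keratin distances, so the share is a description. Distances were counted along the genome, with introns included. The keratin genes are short, with 4964 (Krt19 longloop), 3554 (Krt18) and 7339 bases (Krt8) from the motif to the gene end. No site in them can lie as far from the start as that median, and gene length was not taken into account. The Cldn6 motif lay 1839 bases from the gene start, and the Cdh3 motifs 44996 and 45002 bases from it and 1045 and 1040 bases from the gene end. Krt8 and Krt18 are neighbours on chromosome 15 with 23873 bases between them, but their motifs have no run of more than 7 bases in common. Guanines made up 54.5% to 57.1% of the coding motifs, below the median of 61.5% over all sites, and 73.7% and 77.8% of the Cdh3 motifs.

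The reads over a site reflect the amount of its RNA, and the keratin genes were read on day 7 and not before. A listed 0 stands for at most 5 reads per cation, since no coverage between 1 and 5 occurs in the tables. For each gene the site with the most reads was used, K+ and Li+ reads were summed, and the sum was given as CPM, the count relative to the library's total, scaled between libraries by the trimmed mean of M values. In bulk samples fewer cells of a type and less RNA per cell cannot be told apart.

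Krt8, the type II keratin, was listed at 0 in both day 0 and both day 3 samples and had 1049 and 423 reads in the day 7 samples, or 279 and 311 CPM. Krt18, its usual partner, was likewise at 0 in both day 0 and both day 3 samples and had 1625 and 405 reads on day 7, or 432 and 298 CPM. Krt19, the smallest of the keratins, was at 0 in the same 4 samples and had 485 and 220 reads on day 7, or 129 and 162 CPM. In each of these genes the day 7 samples lay above all 4 earlier ones without overlap, which the choice of the genes favoured. Of all genes tested, 65.8% had a positive log2 change of day 7 over day 0, and the share without overlap is not given here. The day 7 means were 295 ± 22.8 CPM for Krt8, 365 ± 94.8 CPM for Krt18 and 145 ± 23.2 CPM for Krt19 (SD, n = 2 each). Against the ceiling that a listed 0 allows, 10 reads per sample for both cations, these were at least 22.0-fold, 27.2-fold and 10.8-fold above day 0, and at least 19.2-fold, 23.8-fold and 9.47-fold above day 3.

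Cldn6, the tight junction gene, was listed at 0 in both day 0 samples, had 20 and 9 reads in the day 3 samples, and had 362 and 146 reads in the day 7 samples. On day 3 the 20 reads of replicate 1 were all in Li+ and the 9 of replicate 2 all in K+, near the lowest value that is listed. Scaled, this was 19.8 ± 2.79 CPM on day 3 and 102 ± 7.88 CPM on day 7 (SD, n = 2 each), a ratio of means of 5.14. The day 7 mean was at least 7.58-fold above the ceiling on day 0. The day 7 samples lay above all earlier ones, an order whose share over all genes is not given here. Day 0 and day 3 cannot be told apart, since a listed 0 allows up to 19.9 CPM in day 0 replicate 2 and day 3 replicate 2 had 17.8 CPM. Of the 4 genes listed at 0 on day 0, only Cldn6 had reads listed on day 3.

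Cdh3, the P-cadherin gene, followed another course. At its canonical motif the day 0 samples held 65 and 33 reads, those of day 3 119 and 42, and those of day 7 144 and 87. Scaled, these were 45.5 and 65.5 CPM on day 0, 130 and 83.2 CPM on day 3, and 38.3 and 64.0 CPM on day 7. The day 3 samples were both above those of the other days, while day 0 and day 7 overlapped. How many of all genes had this order is not given here. The fitted log2 change was -0.06 ± 0.46 (SE) for day 7 over day 0, 1.22 ± 0.49 for day 3 over day 0, and -1.28 ± 0.41 for day 7 over day 3. With K+ reads alone the day 7 over day 0 value was 0.48 and with Li+ reads alone -0.77, so its sign was not settled. The day 3 over day 0 value was 0.70 without day 0 replicate 1, 0.79 without day 3 replicate 1 and 0.71 with Li+ reads alone. Leaving out replicate 1 of day 3, or that of day 7, gave -0.84 for day 7 over day 3.

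**Figure D1:**
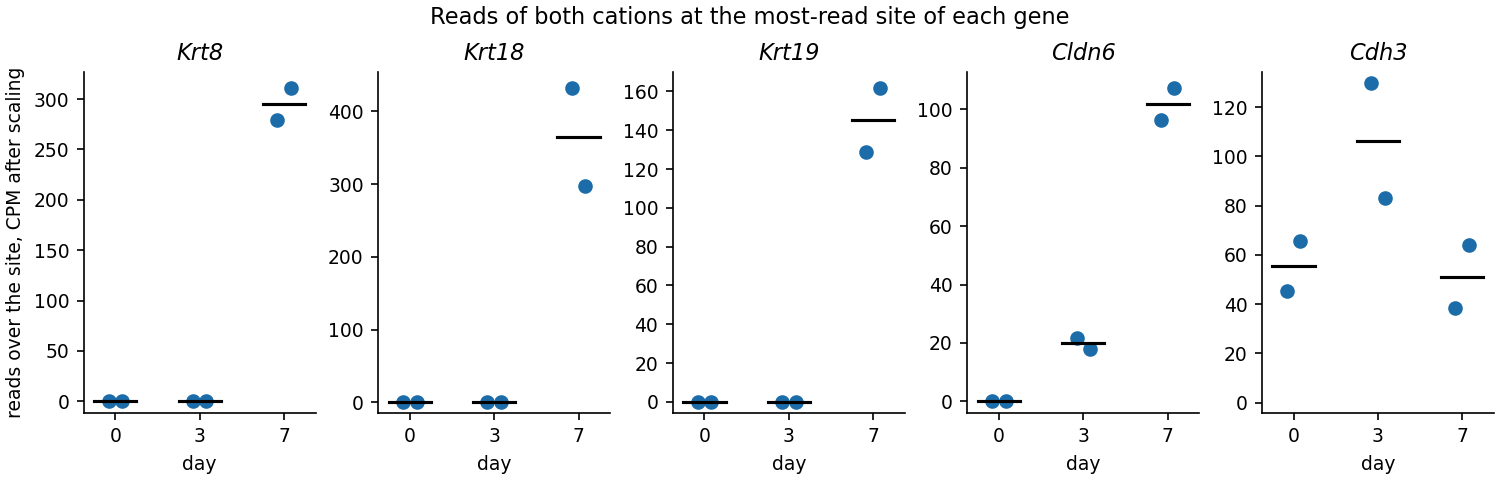
Reads of K+ and Li+ together at the most-read site of each gene, in CPM after scaling (vertical axis, from 0, a scale for each gene), in each sample (points) with the mean of 2 samples (line) on days 0, 3 and 7. The 3 keratin genes sit at a listed 0 until day 7, Cldn6 is at 19.8 CPM on day 3 and 102 CPM on day 7, and Cdh3 is highest on day 3.

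On day 7 the levels over the motif ran from Krt18 and Krt8 through Krt19 and Cldn6 to Cdh3. Krt18 and Krt8 overlapped (298 to 432 CPM against 279 to 311 CPM) and cannot be ordered. Krt19 lay below both of them and above Cldn6, and Cldn6 (96.2 and 107 CPM) above Cdh3, in both samples. These are reads over a stretch of similar size in each gene and not a level of the whole transcript.

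The pattern of the keratins was not common. Of the 2643 gene entries, 176 (6.66%) were at 0 in all day 0 and day 3 libraries and above 0 in both day 7 samples. Only 8 (0.303%) did so with 100 or more reads in each day 7 sample, or 0.878% of the 911 entries with that many reads. Krt8, Krt18 and Krt19 were among the 8, beside Dbn1, Ltb, Pea15a, Pkdcc and Thbs1. That share follows from the choice of the genes and is no separate evidence. Day 7 replicate 1 was also the deepest sample, and a gene entry with few reads is more easily listed above 0 there.

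The profile of the 5 genes over the 6 samples was most like that of Tjp1, the gene of the tight junction scaffold ZO-1, with a Pearson r of 0.994 between its log2 CPM and the mean profile of the 5 genes, among 2120 genes with 20 or more reads in both day 7 samples. Next came Zswim8, a substrate receptor of a ubiquitin ligase (0.988), Irs2, an adaptor of the insulin receptor (0.985), the tyrosine kinase gene Abl1 (0.985) and Dbn1, an actin-binding protein of neurons (0.985). Irs2, Abl1 and Dbn1 were, like the keratins, listed at 0 until day 7. Tjp1 was read in every sample, with 42 and 14 reads on day 0 and 349 and 152 on day 7. Its change of day 7 over day 0 did not pass (log2 change 1.77, adjusted p = 0.0562 in limma-voom). A Pearson r takes no account of the size of a change. Krt8, Krt18 and Krt19 had r of 0.985, 0.984 and 0.985 with the mean they contribute to, Cldn6 0.84 and Cdh3 -0.36. The 6 points fall in 3 days, so an r of this size says little more than that a gene was higher on day 7.

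A list of 80 other epithelial and junction genes was compared with this course, of which 25 entries were in the tables and 24 had enough reads to test. Between day 7 and day 0, 9 of the 24 rose (37.5%), 1 fell and 14 did not pass at an adjusted p under 0.05 in limma-voom. Of all 2389 genes tested, 15.2% rose and 3.14% fell. Of the 9, 5 met the minimum of reads only through the day 7 samples (Cgnl1, Prss8, Cgn, Dsp and a site shared by Ctnnd1 and Gm28635), which favoured their call, and so did 225 of the 364 genes that rose in all. Among entries that met it without the day 7 samples, 4 of 19 in the list rose, against 139 of 1998 in all (6.96%). The median log2 change over the tested entries was 0.97 in the list and 0.57 over all genes. Scaling by total reads moved the median of all genes to a log2 change of 1.01, and then 9 of the list rose and none fell. The list was drawn up with earlier results known, and its name was not tested for enrichment.

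The 4 entries that met the minimum without the day 7 samples and rose were Gja1, Ezr, Cldn7 and Ctnnd1. Gja1, the gap junction protein connexin 43, had 889 and 175 reads on day 7 against 48 and 0 on day 0 (log2 change 5.78 ± 1.43 SE, adjusted p = 0.0309 in limma-voom). Ezr, which links the membrane to actin, had 199 and 57 reads on day 7 against 31 and 0 on day 0 (4.21, adjusted p = 0.0396). In both genes the fit took the listed 0 of day 0 replicate 2 as a true 0, though it allows up to 19.9 CPM. Their log2 changes and adjusted p rest on that 0 and may overstate the rise. The scaled means were 182 CPM on day 7 against 16.8 CPM on day 0 for Gja1. For Ezr they were 47.4 CPM against 10.8 CPM. Cldn7, a claudin read at every time, had 1493 and 423 reads on day 7 against 146 and 61 on day 0 (1.70 ± 0.31, adjusted p = 0.00893). Ctnnd1, the gene of p120 catenin, which binds cadherins, had 1982 and 517 reads on day 7 against 352 and 78 on day 0 at its own site (1.15 ± 0.33, adjusted p = 0.0491).

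The other 5 are given by their reads, as a description. Dsp, the desmosomal plaque protein to which keratin filaments attach, had 267 and 72 reads on day 7 against 8 and 0 on day 0. Cgnl1 and Cgn, paralogous proteins of the tight junction plaque, and Prss8, a membrane-anchored serine protease of epithelia, were listed at 0 on days 0 and 3. Cgnl1 had 130 and 21 reads on day 7, Prss8 had 77 and 34, and Cgn had 63 and 30. Against the ceiling of a listed 0 they were at least 1.86-fold, 1.69-fold and 1.45-fold higher on day 7 than on day 0. A 5′ site that Ctnnd1 shares with Gm28635 had 179 and 67 reads on day 7 against 26 and 0 on day 0.

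Jup, the gene of plakoglobin, which is found in both desmosomes and adherens junctions, was the only one of the list that fell, with 660 and 293 reads on day 7 against 707 and 237 on day 0 (log2 change -1.32 ± 0.26, adjusted p = 0.0127). The reads themselves were similar, and the fall is that of the scaled value, 195 ± 28.3 CPM on day 7 against 483 ± 17.1 CPM on day 0 (SD, n = 2 each). It was not called with scaling by total reads. Cdh1, the E-cadherin gene, had a log2 change of 0.63 (adjusted p = 0.279) and the epithelial adhesion gene Epcam 0.02 (adjusted p = 0.976). Both were read in every sample from day 0 on.

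No gene of the list passed between day 3 and day 0 in limma-voom (2 at an unadjusted p under 0.05), where 0.0837% of all genes rose, and 6 rose and 1 fell between day 7 and day 3, where 10.8% of all genes rose and 1.88% fell. Of these 6, the same 5 entries met the minimum of reads only through the day 7 samples. The counts depended on single libraries: without day 7 replicate 1, the deepest sample, 2 of the list were called between day 7 and day 0, without day 7 replicate 2 it was 6, without day 0 replicate 1 14, without day 0 replicate 2 5 and without day 3 replicate 2 6. Between day 7 and day 3, 0 were called without day 3 replicate 2 and 3 without day 7 replicate 1.

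**Figure D2:**
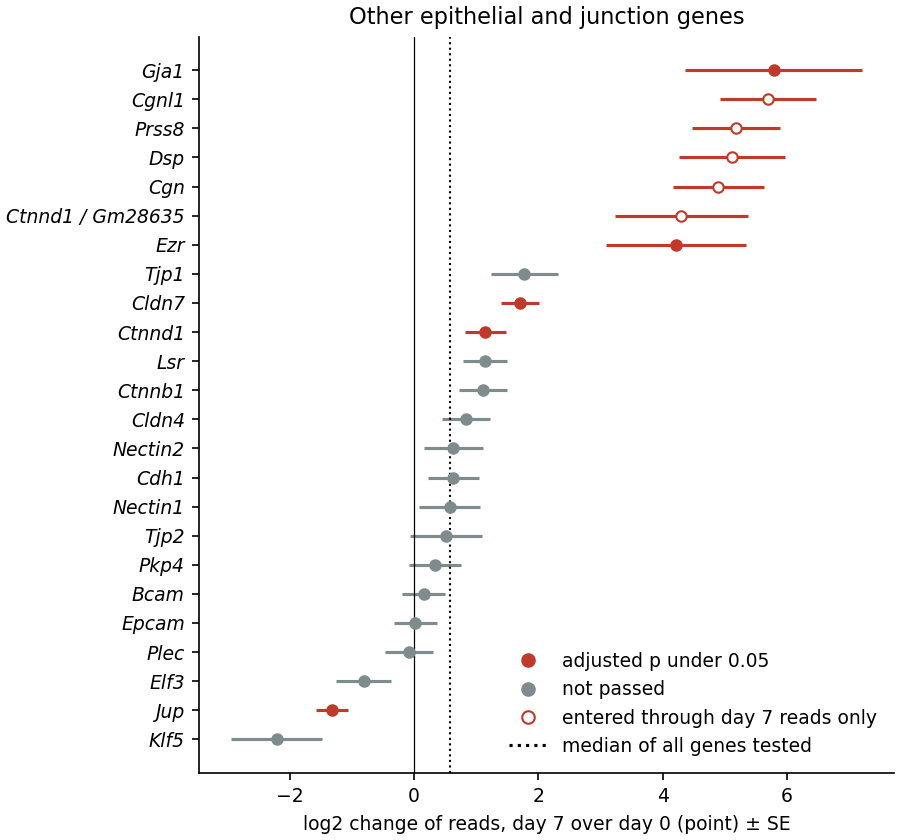
Fitted log2 change of reads, day 7 over day 0 (horizontal axis), for the 24 tested entries of the list of other epithelial and junction genes, with SE. Red points passed at an adjusted p under 0.05 and grey ones did not, and the dotted line is the median of all genes tested, 0.57. Open points are the 5 entries that met the minimum of reads only through the day 7 samples. Gja1 to Ezr lie above 4 and Jup and Klf5 below -1.

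Markers of other cell types were also followed, and they did not all change as the keratins did. Summed over the 6 pluripotency genes in the tables, the level was 3315 and 3282 CPM on day 0, 3283 and 3377 CPM on day 3, and 490 and 949 CPM on day 7, and 5 of the 6 fell between day 7 and day 0 (3.14% of all genes fell). Of 11 listed genes of the primitive streak and mesoderm only T and Fgf8 were in the tables, and both were at 0 on day 0. Their sum was 27.2 and 65.4 CPM on day 3, and 363 and 541 CPM on day 7. Of the neural genes 3 of 6 were called higher (15.2% of all genes were). All 3 met the minimum of reads only through the day 7 samples, which favoured their call, so the count is no evidence of a rise. Of the neural genes that met it without those samples 0 were called higher, against 6.96% of all such genes. The sum of the 6 was 650 and 591 CPM on day 7 against 110 and 222 CPM on day 0. The trophoblast and endoderm lists, whose tissues make keratins 8 and 18, could not be followed, since only Peg10 of 13 and Sparc of 20 were in the tables. Peg10 rose and Sparc did not pass. The 3 fibroblast genes present, which mark feeder cells, had a sum of 268 and 276 CPM on day 7, against 232 and 111 CPM on day 3 and 183 and 59.6 CPM on day 0. The part of these cells in the keratin reads was not tested.

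On day 7, when all 7 sites were read, the enzyme stopped at a small share of the reads in cells and at a far larger share in vitro. At the Krt8 motif the K+ stop share was 8.36% and 4.65% in day 7 cells (28 of 335 and 12 of 258 reads), against 62.6% and 66.8% in vitro (298 of 476 and 603 of 903). At the Krt18 motif it was 8.91% and 4.65% in cells (50 of 561 and 10 of 215), against 37.1% and 19.9% in vitro (169 of 455 and 66 of 332). At the long-loop motif of Krt19 it was 8.82% and 4.03% in cells (15 of 170 and 5 of 124), against 36.6% and 35.8% in vitro (134 of 366 and 199 of 556). Cells and in vitro tables did not overlap at any of these keratin motifs, and the exact 95% intervals of single libraries did not overlap either. Over all sites with 20 or more reads in a library, the median K+ share was 4.48% and 2.96% in day 7 cells. In vitro it was 50% and 51.4%, so a gap of this kind was not particular to the keratin motifs.

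The remaining Krt19, Cldn6 and Cdh3 sites had the same order. At the Cldn6 motif the K+ stop share was 2.88% and 2.30% in cells (4 of 139 and 2 of 87 reads), against 57.7% and 54.4% in vitro (45 of 78 and 49 of 90). At the canonical Cdh3 motif it was 10.3% and 5.88% in cells (6 of 58 and 3 of 51), against 59.6% and 59.8% in vitro (127 of 213 and 239 of 400). The bulged Cdh3 motif had 5.26% and 0% in cells (2 of 38 and 0 of 44, which allows a share of up to 6.82%), against 48.0% and 61.3% in vitro. The bulged Krt19 motif had 1.96% and 2.33% in cells (1 of 51 and 1 of 43), against 40.9% and 51.1% in vitro. Of the keratin motifs, that of Krt8 stopped the enzyme most in vitro, a mean of 64.7% ± 2.95, and that of Krt18 least, 28.5% ± 12.2 (SD in percentage points, n = 2 each).

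**Figure D3:**
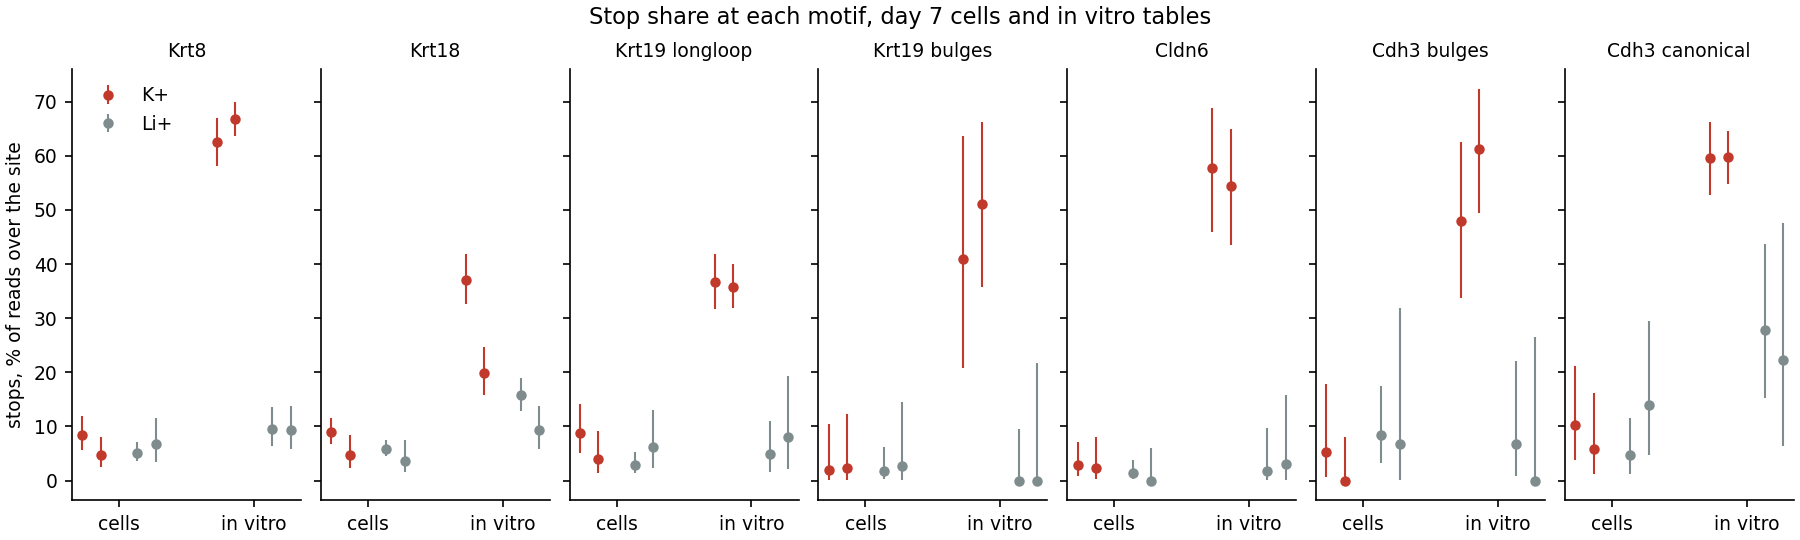
Stop share, as a percentage of the reads over each motif (vertical axis), in day 7 cells (left in each panel) and in the in vitro tables (right), in K+ (red) and Li+ (grey). Points are the 2 samples and bars their exact 95% binomial intervals. K+ is at or below 10.3% in cells at every motif and at 19.9% or more in vitro.

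These differences were tested as the log2 odds of a stop in limma, over the 2648 sites with 20 or more reads in all 8 day 7 and in vitro libraries, 4 of which were in these genes. In K+ the odds were lower in day 7 cells than in vitro at all 4. The log2 odds ratio was -4.73 ± 0.39 (SE) at Krt8 (adjusted p = 2.45e-08), -2.40 ± 0.51 at Krt18 (0.000236), -3.03 ± 0.44 at the Krt19 long-loop motif (7.21e-06) and -5.34 ± 0.63 at Cldn6 (7.47e-07). The same was called lower at 99.5% of all sites tested and higher at 0.0755%, with a median of -4.21, so the call does not set these genes apart. All 5538 sites had a K+ share above the Li+ share in both in vitro tables, where a site without Li+ reads was counted as such. The sites were thus probably chosen on such values, which favours a lower share in cells. Within the range of all sites, Krt18 was among the smallest drops, larger in value than 92.9% of sites, and Cldn6 among the larger ones, above 20.0% of sites.

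With the K+ libraries fitted alone, an alternative added after seeing the data, 3497 sites could be tested and all 7 sites were among them. All 7 were lower in cells than in vitro, as were 99.5% of those sites. The log2 odds ratios of the sites that the first fit had left out were -3.95 ± 0.49 at the canonical Cdh3 motif, -5.54 ± 0.98 at the bulged one and -4.80 ± 0.88 at the bulged Krt19 motif, with adjusted p from 1.81e-05 to 0.000252 in limma.

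Li+ gives the level of stops that folding in the tube does not account for, and it was low in both settings at most of the motifs. At Krt8 the Li+ stop share was 5.18% and 6.67% in day 7 cells (37 of 714 and 11 of 165 reads), against 9.51% and 9.28% in vitro (27 of 284 and 22 of 237). At Krt18 it was 5.83% and 3.68% in cells (62 of 1064 and 7 of 190), against 15.7% and 9.28% in vitro (93 of 591 and 22 of 237, the same numbers as at Krt8 in that table). At the Krt19 long-loop motif it was 2.86% and 6.25% in cells (9 of 315 and 6 of 96), against 4.90% and 8.00% in vitro (5 of 102 and 4 of 50). The Krt18 motif had a higher Li+ share in vitro than 84.7% of sites and the lowest K+ share of the 7 sites.

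At the Cldn6 motif the Li+ share was 1.35% and 0% in cells (3 of 223, and 0 of 59, which allows up to 5.08%), against 1.82% and 3.03% in vitro (1 of 55 and 1 of 33). The bulged Krt19 motif had 1.75% and 2.78% in cells (2 of 114 and 1 of 36), against 0% in both in vitro tables (0 of 37 and 0 of 15, which allow up to 8.11% and 20%). At the canonical Cdh3 motif it was 4.65% and 13.9% in cells (4 of 86 and 5 of 36), against 27.9% and 22.2% in vitro (12 of 43 and 4 of 18). The bulged Cdh3 motif had 8.45% and 6.67% in cells (6 of 71 and 1 of 15), against 6.67% and 0% in vitro (2 of 30, and 0 of 12, which allows up to 25%). None of the 4 tested sites passed for cells against in vitro in Li+ (adjusted p from 0.231 to 0.612 in limma), where 2.68% of all sites were lower and 0.151% higher.

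In vitro, the K+ odds of a stop exceeded the Li+ odds at all 4 tested sites, as at 99.7% of all sites. The sites were probably chosen on such values, so the sizes are a description. The log2 odds ratio of K+ over Li+ was 5.22 ± 0.81 (SE) at Cldn6, 4.12 ± 0.35 at Krt8, 3.02 ± 0.54 at the Krt19 long-loop motif and 1.44 ± 0.42 at Krt18. Krt18 was higher than only 2.15% of the sites tested, and Cldn6 higher than 88.3%.

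In day 7 cells, K+ and Li+ were not told apart at the tested sites, and the intervals were wide. The log2 odds ratio of K+ over Li+ was 0.14 (95% interval -0.95 to 1.24) at Krt8, 0.49 (-0.93 to 1.91) at Krt18, 0.68 (-0.72 to 2.09) at the Krt19 long-loop motif and 1.31 (-0.94 to 3.55) at Cldn6, where the median of all sites was 0.22. In that order, the values were higher than 45.4%, 64.0%, 72.5% and 90.5% of the sites tested. No site of the 2648 was called in limma, with 107 at an unadjusted p under 0.05. Each of the 4 sites had an adjusted p of 0.999 in limma. The samples pointed in opposite directions at Krt8 and Krt19: at Krt8 K+ minus Li+ was 3.18 percentage points in replicate 1 and -2.02 in replicate 2, and at the Krt19 long-loop motif 5.97 and -2.22. Without replicate 1 the log2 odds ratio was -0.55 at Krt8 and -0.64 at Krt19. At Krt18 (3.09 and 0.97 percentage points) and Cldn6 (1.53 and 2.30) K+ was higher in both samples. At the bulged Cdh3 motif, which was not tested, K+ was lower in both samples (-3.19 and -6.67 percentage points), and at the bulged Krt19 motif the values were 0.21 and -0.45. Over all sites outside ribosomal and mitochondrial RNA the stop share was 5.84% in K+ and 4.21% in Li+ in replicate 1, and 4.37% in K+ and 4.92% in Li+ in replicate 2, so the samples pointed in opposite directions there too.

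The difference between cells and in vitro in the K+ over Li+ odds was tested directly. It was negative at all 4 sites and passed at 3: -3.98 ± 0.63 (SE) at Krt8 (adjusted p = 0.000203), -3.91 ± 1.34 at Cldn6 (0.0172) and -2.34 ± 0.85 at the Krt19 long-loop motif (0.0233). At Krt18 it was -0.94 ± 0.79 and did not pass (adjusted p = 0.267, 95% interval -2.62 to 0.73). Over all sites 74.7% passed in this direction and none in the other, so 3 of 4 is near the background. The sites were probably chosen with K+ above Li+ in vitro, which favours a negative difference in advance. The Krt8 call was kept without any 1 sample (adjusted p from 0.00523 to 0.0139). Cldn6 missed the threshold without day 7 replicate 1 (0.206), without in vitro replicate 1 (0.0538) and with a pseudocount of 0.1 (0.0733), and Krt19 without day 7 replicate 2 (0.220) and without in vitro replicate 1 (0.121).

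**Figure D4:**
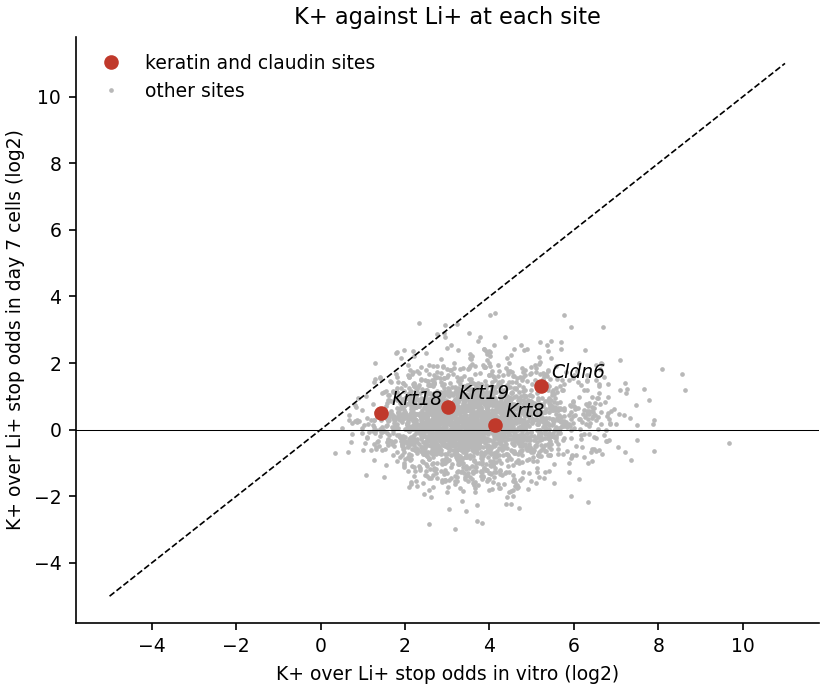
Log2 odds ratio of a stop, K+ over Li+, in day 7 cells (vertical axis) against the in vitro tables (horizontal axis) for the 2648 sites covered by at least 20 reads in each library. Red points are the Krt8, Krt18, Krt19 and Cldn6 motifs and grey points all other sites, and the dashed line marks equal values. The 4 red points lie below the line, at 0.14 to 1.31 in cells and 1.44 to 5.22 in vitro.

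The number of K+ stops at a site on a day combines the amount of RNA and the share that stops. In K+ the Krt8 motif had 28 and 12 stops on day 7, Krt18 50 and 10, the Krt19 long-loop motif 15 and 5, and Cldn6 4 and 2, and none of them had a stop on day 0 or day 3. At Krt8, Krt18 and Krt19 no reads were listed on those days, so a stop share has no value there. Cldn6 had 0 stops in 20 Li+ reads of 1 day 3 sample and in 9 K+ reads of the other, which allow shares of up to 15% and 33.3%. Stop shares before day 7 are thus unmeasured in the keratins and bounded only loosely in Cldn6.

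Cdh3 is the one gene of the 5 with reads in both cations on every day. At its canonical motif the K+ stop share was 3.45% and 0% on day 0 (1 of 29 and 0 of 15 reads), 16.7% and 28.6% on day 3 (6 of 36 and 8 of 28), and 10.3% and 5.88% on day 7 (6 of 58 and 3 of 51). The Li+ stop share was 16.7% in both day 0 samples (6 of 36 and 3 of 18), 0% in both day 3 samples (0 of 83 and 0 of 14, which allow up to 3.61% and 21.4%), and 4.65% and 13.9% on day 7 (4 of 86 and 5 of 36). K+ minus Li+ was thus -13.2 and -16.7 percentage points in the day 0 samples, 16.7 and 28.6 in those of day 3, and 5.69 and -8.01 in those of day 7. The day 3 samples lay above the others and the day 0 samples below them. How many of all sites were ordered in this way is not given here.

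The K+ stop counts behind this were 1 and 0 in the day 0 samples, 6 and 8 in those of day 3, and 6 and 3 in those of day 7. It was the only one of the 7 sites with enough K+ stops for the count fit, where its log2 change was 3.22 ± 0.66 (SE) for day 3 over day 0, 0.71 ± 0.67 for day 7 over day 0 and -2.51 ± 0.61 for day 7 over day 3. Of the 327 sites in that fit 16.2% were called between day 7 and day 0, 0.612% between day 3 and day 0 and 6.42% between day 7 and day 3, and nothing is read from this for Cdh3, which was chosen with these contrasts known. The bulged motif, which shares most of its bases, had 0 and 1 K+ stops in the day 0 samples, 4 and 0 in those of day 3 and 2 and 0 in those of day 7, and did not show the same pattern in both samples. Its day 3 K+ share was 22.2% in replicate 1 (4 of 18 reads) and 0% in replicate 2 (0 of 21).

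K+ and Li+ in cells on day 0 and day 3 were tested at 847 sites with 20 or more reads in all 12 in-cell libraries, and no site of the 5 genes was among them. In limma 0 of these sites were called on either day, with 24 on day 0 and 96 on day 3 at an unadjusted p under 0.05. The median log2 odds ratio of K+ over Li+ over those sites was -0.33 on day 0 and 0.70 on day 3, the same directions as at the canonical Cdh3 motif. Leaving out day 3 replicate 1 gave a day 3 median of 0.33, and leaving out its replicate 2 gave 1.31. For day 0 the median became -0.50 with replicate 1 left out, -0.16 with replicate 2 left out, and 0.13 if the cation columns of day 0 replicate 2 are exchanged. Over all sites outside ribosomal and mitochondrial RNA, the stop share on day 0 was 4.46% and 5.28% in K+, against 5.33% and 6.81% in Li+, and on day 3 it was 9.62% and 4.90% in K+, against 4.54% and 4.50% in Li+. The part of these library-wide levels in the Cdh3 values was not tested.

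**Figure D5:**
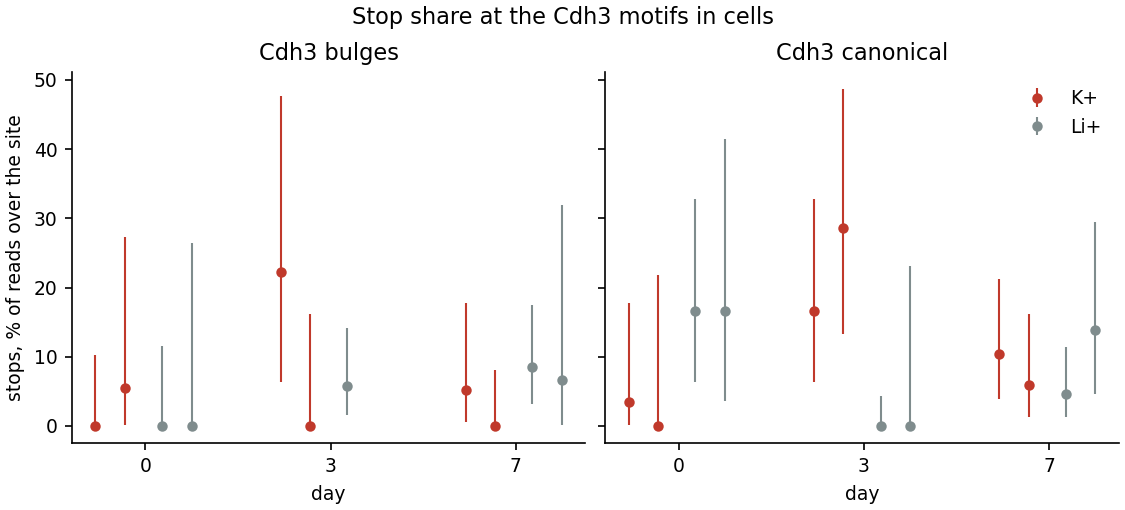
Stop share at the bulged (left) and canonical (right) Cdh3 motifs in cells on days 0, 3 and 7, as a percentage of the reads over the motif, in K+ (red) and Li+ (grey). Points are samples and bars exact 95% binomial intervals. A library listed at 0 reads is left out. At the canonical motif K+ is above Li+ in both day 3 samples and below it in both day 0 samples, and the bars are wide.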

How the data were processed

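The members and gene lists were chosen with earlier results of these data known. Per the file headers, the deposited values are whole-number read counts of coverage and stops per site and cation, not normalized, for the same 5538 sites in 8 tables of 6 samples. The submitters' processing notes name SAMtools, cutadapt and STAR, and the build GRCm38.p6 (mm10). The settings, the use of strand and the treatment of reads with several matches are not given in these sources, and RefSeq lists a Krt8 pseudogene, Krt8-ps, with which Krt8 reads could be shared. Other values that the text calls a ratio, fold or log2 were computed here from those deposited counts.

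Reads per gene and K+ stops per site were fitted over the 6 in-cell samples with limma-voom (limma 3.58.1, R 4.3.3) after trimmed mean of M values scaling, without covariates. Features entered with 10 counts at the median library size in 2 libraries and 15 in all. At 2 sites of another gene without a value in day 0 replicate 1, 0 was used. Stop odds were fitted with limma on log2 odds with a pseudocount of 0.5 and beta-binomial weights. Adjusted p are Benjamini-Hochberg values over all features. Both tests were checked on simulated data. Intervals of shares are exact Clopper-Pearson intervals, and they and the limits for 0 stops (3 counts of the total) cover counting error only, since reads are not independent molecules. Nothing in the labels says that the replicates were separate cultures, and p-values measure only how these samples spread. Sequences and coordinates are as deposited, and distances to gene starts use RefSeq on GRCm38.p6. From the other epithelial genes, those called between day 7 and day 0 with the largest changes were named, at most 8 up and 4 down, and the 5 genes of most like profile. Cdh1, Epcam and Ctnnd1 were named after their values were seen.

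Replicate numbers were not taken to pair the days, and so few samples a day cannot settle whether they do. Deviations of same-numbered samples correlated with r of 0.25 between day 3 and day 0. For day 7 the r was -0.06 with day 0 and 0.03 with day 3. K+, Li+ and in vitro libraries of 1 sample are paired by that sample. Scaling, filters, coverage minimum, pseudocount, weights, block and left-out samples were varied.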

Additional observations from a re-analysis of the deposited data

Results flagged for a closer look

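The K+ over Li+ odds of a stop differed between day 7 cells and the in vitro tables, by a test of the difference itself, at Krt8 (log2 difference -3.98), Cldn6 (-3.91) and the Krt19 long-loop motif (-2.34), as at 74.7% of all sites. The sites were probably chosen with K+ above Li+ in vitro, which favours such a difference in advance. At the canonical Cdh3 motif K+ minus Li+ was positive in both day 3 samples and negative in both day 0 samples, and the means differed by 37.6 percentage points. The difference was not tested, and rests on 14 K+ stops and 0 Li+ stops on day 3 against 1 and 9 on day 0.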

How the results depend on the processing

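Leaving out 1 sample at a time gave 113 to 1064 genes called for reads between day 7 and day 0 (439 with all samples), 0 to 331 between day 3 and day 0 (2) and 0 to 585 between day 7 and day 3 (302). For K+ stops it gave 21 to 69 sites (53), 0 to 3 (2) and 14 to 22 (21). Cells against in vitro gave 2570 to 2633 sites in K+ (2637) and 1096 to 1611 in K+ over Li+ (1978), and K+ against Li+ in cells gave 0 on each day. With the replicate block, which rests on replicate numbers not known to pair the days, 264 genes were called for reads between day 7 and day 0. Between day 3 and day 0 it was 0 genes and 0 sites. Where the block is the sample that K+, Li+ and in vitro libraries share, it changed no call at the keratin and Cldn6 sites. Reads of K+ alone gave 25 genes between day 3 and day 0, and reads of Li+ alone 1, and 172 between day 7 and day 3. Scaling by total stops gave 93 sites between day 7 and day 0 and 43 between day 3 and day 0. Without a filter it was 154, 14 and 134 sites. A minimum of 50 reads left 1168 sites, of which 1160 and 917 were called for cells against in vitro, and left out Cldn6.

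K+ over Li+ in cells changed sign at Krt8 (-0.55 to 0.74) and Krt19 (-0.64 to 1.69) when 1 sample was left out, and so did cells against in vitro in Li+ at Krt19 (-1.16 to 0.049). The causes were not tested. The K+ drop of cells against in vitro held at each tested site under every alternative run. Depth limits the bulged Krt19 and both Cdh3 motifs, where some libraries held few reads and Li+ of day 3 replicate 2 was listed at 0 at the bulged Cdh3 motif, and all 3 keratins and Cldn6 before day 7.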
